A study of Homo sapiens with 6 samples.

Results

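ID1, ID2, ID3 and ID4 make up the human family of inhibitor of DNA binding proteins, and they were chosen here by gene symbol, as 4 of the 31413 genes in a table of RNA-seq counts. The choice was made with the difference between the groups of this series already known, so the values of the 4 genes in that comparison are given as a description, with no p-value and nothing read from whether they pass a threshold. The libraries came from C42 cells, a prostate cancer cell line also written C4-2, grown in RPMI with 10% FBS. The shNSD2 group, also written shWHSC1, carried an shRNA against the histone methyltransferase gene NSD2 (3 libraries, numbered 1, 2 and 3), and the shCTR group carried a control shRNA (3 libraries, numbered 1, 2 and 4). All libraries share the same cell line, the labels name no agent beside the shRNA, and they do not say how many shRNA sequences or clones were used. Nothing in the labels says that the libraries came from separate cultures, so errors and p-values here measure library-to-library spread, part or all of which may be technical.

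ID proteins have a helix-loop-helix domain for pairing with other proteins but lack the basic region that binds DNA. They pair with the E proteins TCF3, TCF4 and TCF12, which are transcription factors of the basic helix-loop-helix (bHLH) class, and so keep these from binding E-box DNA alone or with tissue-restricted bHLH partners. Transcription of ID genes is a common early response to bone morphogenetic proteins (BMPs), whose receptors act through SMAD1, SMAD5 and SMAD9 with SMAD4. ID proteins are known for holding cells in a proliferating, less differentiated state, in part by restraining the genes of CDK inhibitors.

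The 250 bases before the RefSeq transcription start of ID1 and ID4 are shown because these 2 members had the largest fold changes. They are RefSeq sequences on GRCh38.p14, written 5′ to 3′ on the plus strand, and capitals mark the SMAD box, GTCT or its reverse complement AGAC. The first is chr20:31605039-31605288 and the second chr6:19837120-19837369.
ID1: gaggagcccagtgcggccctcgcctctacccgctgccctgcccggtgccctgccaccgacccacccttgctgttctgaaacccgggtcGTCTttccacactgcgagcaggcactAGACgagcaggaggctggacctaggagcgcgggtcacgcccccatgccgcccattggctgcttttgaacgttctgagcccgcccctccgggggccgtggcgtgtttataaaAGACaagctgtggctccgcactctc
ID4: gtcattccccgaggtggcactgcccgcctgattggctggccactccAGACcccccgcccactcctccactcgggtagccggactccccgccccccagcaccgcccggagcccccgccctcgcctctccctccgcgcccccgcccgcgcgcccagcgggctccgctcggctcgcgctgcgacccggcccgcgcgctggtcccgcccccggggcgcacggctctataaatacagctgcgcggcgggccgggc
The ID1 window held 3 SMAD boxes and the ID4 window 1, and the ID2 and ID3 windows held 2 each. GENCODE exons cover 6 bases of the ID1 window, whose GENCODE start lies before the RefSeq one, and 0 of the ID4 window, against 202 of the ID2 and 250 of the ID3 window, which are not printed. A SMAD box lies in 77.5% of the 35116 RefSeq promoter windows of this length. The letters TATAAA, searched on both strands like all motifs here, were present in the windows of ID1 and ID4, and in 10.7% of all windows. They begin 31 bases before the start in ID1 and 29 in ID4 on the plus strand, and in ID1 a minus-strand match overlaps the plus-strand one. A CCAAT box was present in the windows of ID1, ID2 and ID4 and in 32% of all windows, and an E-box (CANNTG) in those of ID2 and ID4 and in 61.8% of all. The GC-rich SMAD site GGCGCC, found in 16.4% of all windows, was not in these 4 windows.

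Library totals ran from 19412896 to 20665494 counts, which limits the precision of genes with few counts. Prostate epithelial identity was plain in all libraries: the 11 markers checked, among them KLK3, FOXA1 and HOXB13, were all at 1 CPM or more (CPM being reads scaled to a common library size by the TMM method). Of 16 markers of leukocytes, endothelium, fibroblasts, basal and neuroendocrine cells, 7 had no row, PTPRC, CD3E and TP63 among them, and 6 stayed under 1 CPM in every library. The summed level of the prostate markers was 11876.5 to 12270.7 CPM in shNSD2 libraries and 12547.4 to 14048.5 CPM in shCTR libraries. That of the markers of other cells was 16.2 to 19.2 CPM in shNSD2 libraries and 12.5 to 12.7 CPM in shCTR libraries, made up mainly of VWF and the synaptic vesicle gene SYP. The part of these differences in the results for the ID genes was not tested. NSD2, the gene targeted, held 85.3, 86.4 and 89.7 CPM in shNSD2 libraries and 219, 223 and 200.1 CPM in shCTR libraries, so it was reduced in every library labelled as a knockdown.

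All 4 ID transcripts were lower in the shNSD2 libraries, and for each of them every shNSD2 library lay below every shCTR library. ID4 was reduced most, to 18.8% of the control mean, followed by ID1 at 24.6%, ID2 at 33.7% and ID3 at 44.7%. Under the call rule used for all genes (edgeR quasi-likelihood test, adjusted p under 0.05), 15.2% of the 17160 genes tested were called lower, these 4 among them. The log2 fold change of all 4 was below 0, as was that of 49.5% of genes. Groups without overlap and lower in shNSD2 were found for 22.8% of genes, and because the 4 genes were chosen with this comparison known, nothing is read from their count. In RNA from whole cultures, fewer cells expressing a gene and less RNA of it per cell cannot be told apart.

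ID1 encodes the family member best known as a direct target of BMP signalling. Its level was 19.6, 31.5 and 32.0 CPM in shNSD2 libraries 1, 2 and 3, and 128, 92.9 and 117 CPM in shCTR libraries 1, 2 and 4. The groups did not overlap, and the lowest control was 2.90 times the highest knockdown library. The means were 27.7 ± 7.01 CPM in shNSD2 and 113 ± 18.0 CPM in shCTR (SD, n = 3 each). The log2 fold change was -2.02 (SE 0.18). ID1 (ENSG00000125968) lies on chromosome 20 of GRCh38 from 31605283 to 31606515 on the plus strand.

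ID2, which binds the retinoblastoma protein in addition to E proteins, held 6.78, 9.86 and 11.3 CPM in shNSD2 libraries and 31.9, 25.7 and 25.1 CPM in shCTR libraries. The lowest control was 2.22 times the highest knockdown library. The means were 9.31 ± 2.31 CPM in shNSD2 and 27.6 ± 3.76 CPM in shCTR (SD, n = 3 each). The log2 fold change was -1.57 (SE 0.17). ID2 (ENSG00000115738) lies on chromosome 2 from 8678845 to 8684453 on the plus strand.

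ID3, which like ID1 responds to BMP signals and restrains E proteins in many cell types, held 28.9, 31.2 and 30.6 CPM in shNSD2 libraries and 74.1, 57.3 and 71.5 CPM in shCTR libraries. By ratio, its shNSD2 libraries were the closest to one another of the 4 members, with the highest at 1.08 times the lowest. Its groups were also the nearest to each other by ratio, the lowest control being 1.84 times the highest knockdown library. The means were 30.2 ± 1.20 CPM in shNSD2 and 67.6 ± 9.04 CPM in shCTR (SD, n = 3 each). The log2 fold change was -1.16 (SE 0.11). ID3 (ENSG00000117318) lies on chromosome 1 from 23557918 to 23559794 on the minus strand.

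ID4, known from neural and prostate cells and able to pair with the other ID proteins, was the scarcest member. It held 1.99, 3.13 and 3.78 CPM in shNSD2 libraries and 17.3, 15.6 and 14.5 CPM in shCTR libraries. These values came from 39, 61 and 78 reads in shNSD2 and 353, 323 and 278 reads in shCTR libraries, so the knockdown values carry the largest counting error of the family. The lowest control was 3.83 times the highest knockdown library, the largest such ratio of the 4. The means were 2.97 ± 0.908 CPM in shNSD2 and 15.8 ± 1.40 CPM in shCTR (SD, n = 3 each). The log2 fold change was -2.40 (SE 0.19). ID4 (ENSG00000172201) lies on chromosome 6 from 19837386 to 19840684 on the plus strand.

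**Figure D1:**
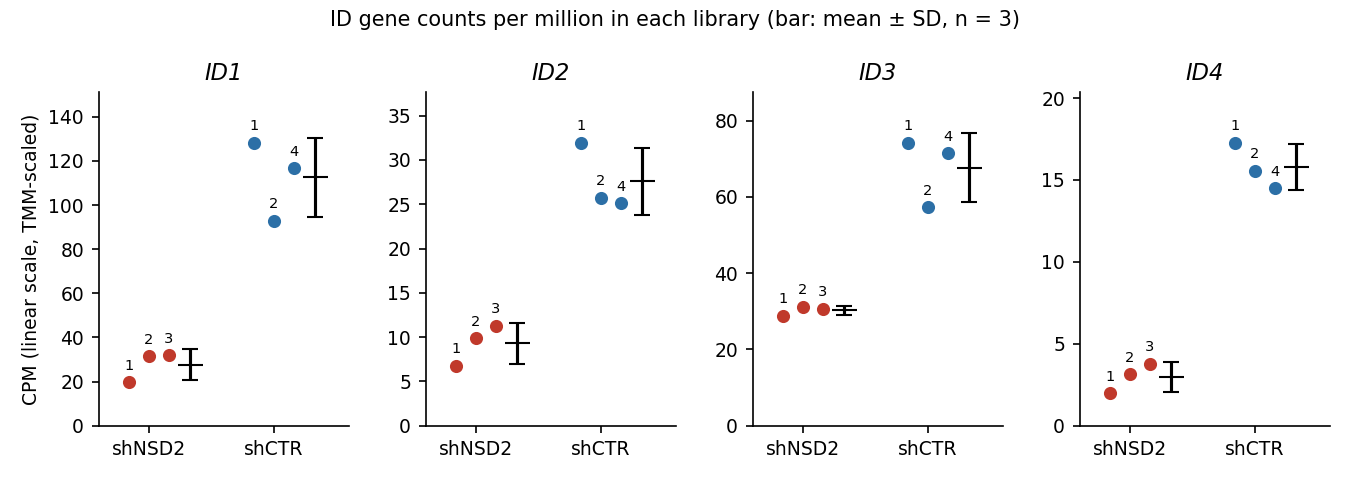
CPM (linear axes from 0) of ID1, ID2, ID3 and ID4 in each library, with shNSD2 left of shCTR, library numbers beside the points and the mean ± SD (n = 3) as a bar. In each panel the 3 shNSD2 points lie below the 3 shCTR points, and the gap as a ratio is widest for ID4, where the lowest control is 3.83 times the highest shNSD2 library.

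Among all genes tested, 55 had a lower log2 fold change than ID4, 90 than ID1, 188 than ID2 and 430 than ID3. The median log2 fold change was -1.79 over the 4 members and 0.01 over all genes tested. The position of the 4 genes below the bulk of genes of similar level is shown in the plot of log2 fold change against mean level.

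**Figure D2:**
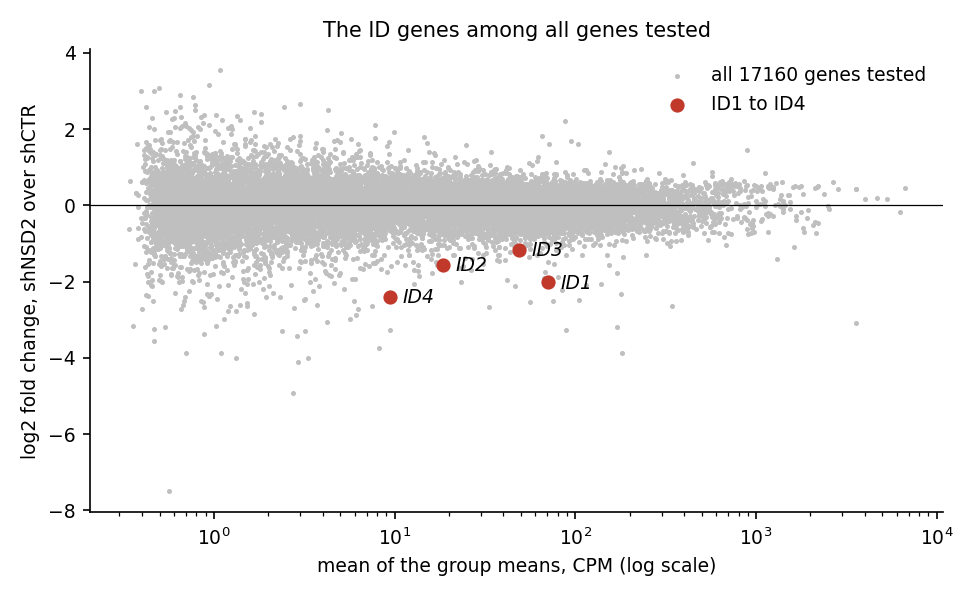
Log2 fold change of shNSD2 over shCTR against the mean of the group means in CPM (log scale) for the 17160 genes tested (grey) and the 4 ID genes (red). The ID genes lie at -1.16 to -2.40, below most genes of similar level.

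The lowest and the highest of the 6 libraries were the same for all 4 genes, while the lowest control and the highest shNSD2 library differed between genes. Of the shNSD2 libraries, number 1 was the lowest for all 4 genes, and of the shCTR libraries, number 1 was the highest for all 4. After the group means were subtracted, the log2 levels of ID2 and ID4 had a Pearson r of 0.98 over the 6 libraries and those of ID1 and ID2 0.90, against 0.29 for ID3 and ID4 and 0.45 for ID2 and ID3. These points share library and depth, and the correlations are a description. Without shNSD2 library 1 the log2 fold changes were -1.82 for ID1, -1.38 for ID2, -1.13 for ID3 and -2.18 for ID4. Without shCTR library 4, they were -1.99, -1.63, -1.12 and -2.46 in the same order.

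Per length of exon, ID1 was the most abundant member in control cells, followed by ID3, ID2 and ID4. The level of ID1 was 22.5 ± 5.68 CPM per kilobase of annotated exon in shNSD2 and 91.3 ± 14.6 in shCTR, and that of ID3 was 16.8 ± 0.668 in shNSD2 and 37.6 ± 5.03 in shCTR (SD, n = 3 each). ID2 followed with 4.22 ± 1.05 CPM per kilobase in shNSD2 and 12.5 ± 1.71 in shCTR, and ID4 with 1.27 ± 0.387 in shNSD2 and 6.73 ± 0.596 in shCTR (SD, n = 3 each). In shCTR libraries no neighbours in this order overlapped. In shNSD2 libraries ID1 and ID3 did overlap, since ID1 stood at 15.9 in library 1, below the 16.1 of ID3 there, and above ID3 in the others.

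The summed level of the 4 genes per kilobase was 44.8 ± 7.70 in shNSD2 and 148 ± 21.0 in shCTR (SD, n = 3 each). ID1 made up 49.7 ± 4.62% of that sum in shNSD2 and 61.5 ± 1.29% in shCTR, whereas the share of ID3 was 38.2 ± 5.70% in shNSD2 and 25.4 ± 0.738% in shCTR (SD, n = 3 each). The ratio of ID1 to ID3 was 0.99, 1.47 and 1.52 in shNSD2 libraries 1, 2 and 3 and 2.52, 2.36 and 2.38 in shCTR libraries 1, 2 and 4, without overlap. The length used for ID3 matters to the order: with its longest annotated transcript (1251 bases) in place of all exons merged (1797 bases), ID3 averaged 24.1 CPM per kilobase in shNSD2, above the 22.5 of ID1, and 54.1 in shCTR, below the 91.3 of ID1.

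**Figure D3:**
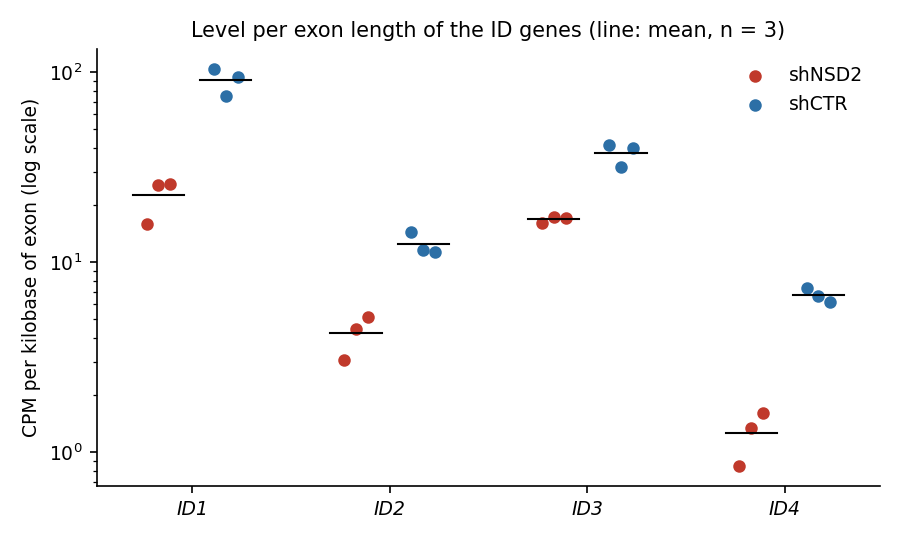
Level of each ID gene in CPM per kilobase of annotated exon (log axis), with 3 shNSD2 libraries (red) left of 3 shCTR libraries (blue) and the mean as a line. ID1 is highest in controls at a mean of 91.3, and in shNSD2 libraries the points of ID1 and ID3 overlap.

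Annotated antisense genes overlap ID2 and ID4. ID2-AS1, on the strand opposite to ID2, had 6, 2 and 6 reads in shNSD2 libraries and 23, 11 and 9 reads in shCTR libraries, too few for the low-count filter. AL022068.1, which overlaps ID4 on the opposite strand, had 15, 28 and 34 reads in shNSD2 and 51, 42 and 50 in shCTR libraries, and was called lower (log2 fold change -0.88, SE 0.27, edgeR adjusted p = 0.0332). That call was lost without shNSD2 library 1, shNSD2 library 2, shCTR library 1 or shCTR library 2. The strand setting of the counting is not given in the sources used here, so reads of these antisense genes and of ID2 or ID4 cannot be told apart.

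The genes next to the ID genes on the chromosome were not used in choosing the family and were tested in the same fit. The 3 nearest tested genes on each side of the 4 loci make 24 genes, of which 8 fell and 2 rose, or 41.7% called, against 30.7% of all genes tested. Among the 8 is AL022068.1, which overlaps ID4 and whose reads cannot be told apart from those of ID4. Differences between the loci were not tested. Around ID1, 0 of 6 neighbours were called by edgeR or limma-voom, 2 had an unadjusted p under 0.05, and DESeq2 called TPX2, a spindle assembly factor gene, lower (log2 fold change -0.28, adjusted p = 0.0368). With a library left out, edgeR called TPX2 lower without shCTR 1 and BCL2L1 higher without shCTR 4, and it called TPX2 lower with genes filtered at 1 CPM in 3 libraries (adjusted p = 0.0482). The tested gene closest to ID1, the signal peptide peptidase gene HM13 at a distance of 27.4 kb, averaged 338 CPM in shNSD2 and 373 CPM in shCTR. BCL2L1, an anti-apoptotic gene 57.9 kb from ID1, averaged 83.9 CPM in shNSD2 and 71.5 CPM in shCTR.

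Around ID2, 4 of 6 neighbours fell (66.7% called, beside 30.7% of all genes). The kinase D-interacting gene KIDINS220, the nearest at 36.6 kb, averaged 96.7 CPM in shNSD2 and 156 CPM in shCTR (log2 fold change -0.69, SE 0.15, edgeR adjusted p = 0.00785). The acyltransferase gene MBOAT2, the nucleotide kinase gene CMPK2 and the transcription factor gene SOX11 had log2 fold changes of -0.53, -1.07 and -0.86 (adjusted p by edgeR 0.0116, 0.00701 and 0.00522). The call of MBOAT2 was lost without shNSD2 library 1. CMPK2 and SOX11 lie far off, at 1812 and 2977 kb.

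Around ID3, 1 neighbour fell and 2 rose (50% called, beside 30.7% of all genes). E2F2, a cell cycle transcription factor gene 26.7 kb away, fell by 0.77 on the log2 scale (SE 0.12, adjusted p by edgeR 0.00260), while the ARF GTPase regulator gene ASAP3 rose by 0.48 and the ribosomal protein gene RPL11 by 0.47 (edgeR adjusted p = 0.00631 and 0.0341). Of the 6 fits with a library left out, only that without shCTR 4 kept the call of RPL11. Around ID4, 3 neighbours fell (50% called, beside 30.7% of all genes). Beside AL022068.1 these were E2F3 and DEK. E2F3, a cell cycle transcription factor gene 561 kb away, had a log2 fold change of -0.44 (edgeR adjusted p = 0.00697). DEK, a chromatin protein gene 1573 kb away, had a log2 fold change of -0.27 (edgeR adjusted p = 0.0382). The call of DEK was lost without any 1 of shNSD2 1, shNSD2 2, shNSD2 3 or shCTR 2.

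**Figure D4:**
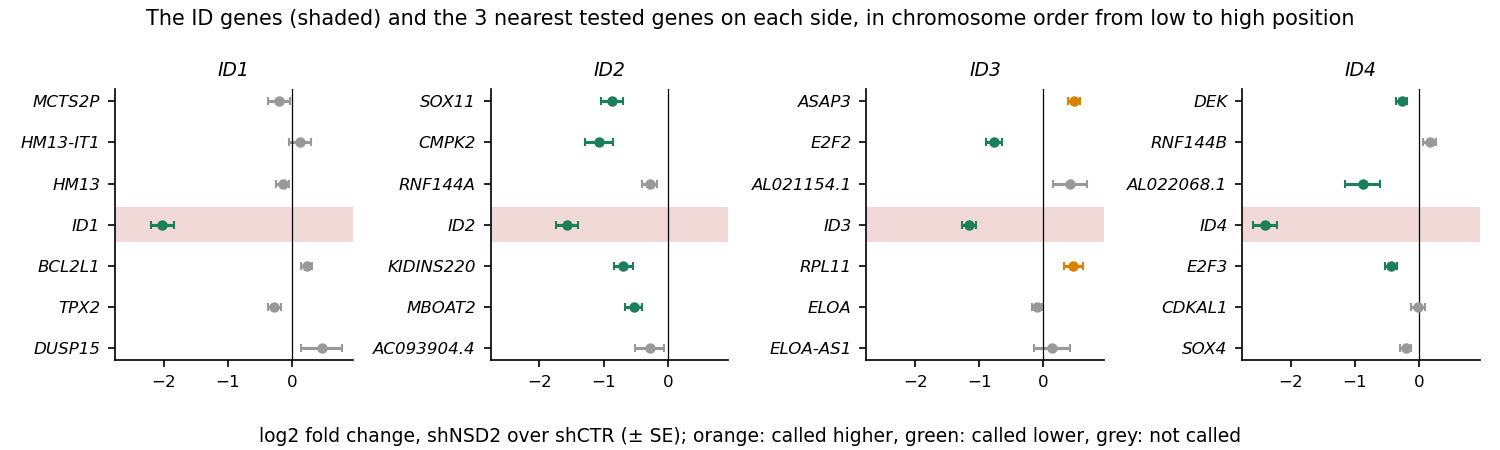
Log2 fold change (± SE) of shNSD2 over shCTR for each ID gene (shaded) and the 3 nearest tested genes on each side, in chromosome order, with genes called lower in green, higher in orange and the rest in grey. The ID1 neighbours lie between -0.27 and 0.46 with 0 of 6 called, 4 of the 6 ID2 neighbours were called lower, and in each panel the ID gene has the most negative value.

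In the BMP pathway, the best known inducer of ID genes, more genes fell than rose: of 41 listed genes, 28 were tested, 12 fell and 1 rose. That is 46.4% called, against 30.7% of all genes tested, and the list was chosen with earlier results of these data known. With a library left out, 10 to 17 were called lower, 17 of them without shCTR library 4, and 1 higher. The list median was -0.29 on the log2 scale, beside 0.01 for all genes. By role, 6 receptors, 1 SMAD and 5 inhibitors were called lower, and 0 of the 4 ligands tested; the difference between roles was not tested.

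Of 11 listed BMP ligands, 4 were tested, and 0 were called (by edgeR, by DESeq2 and by limma-voom) or had an unadjusted p under 0.05 in edgeR. BMP7 averaged 14.8 ± 2.24 CPM in shNSD2 and 17.8 ± 1.61 CPM in shCTR, and BMP8B 16.2 ± 0.255 CPM in shNSD2 and 16.9 ± 0.593 CPM in shCTR (SD, n = 3 each). BMP6 (log2 fold change -0.45) and BMP8A (0.13) stood near 1 to 2 CPM. BMP4 had at most 7 reads in a library, and BMP2 had no row.

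Of 10 tested BMP receptors and co-receptors, 6 fell (60% called, beside 30.7% of all genes). Of all genes tested, 15.2% were called lower. BMPR2, a type II receptor for BMPs, held 88.4, 90.5 and 80.9 CPM in shNSD2 libraries and 216, 181 and 115 CPM in shCTR libraries 1, 2 and 4. The groups did not overlap, and shCTR library 4 was the control nearest to the knockdown. Its log2 fold change was -0.98 (SE 0.18, edgeR adjusted p = 0.00457). The type I receptor gene BMPR1A averaged 24.7 ± 2.04 CPM in shNSD2 and 42.3 ± 7.94 CPM in shCTR, and ACVR1, another type I receptor gene, 13.8 ± 0.647 CPM in shNSD2 and 19.2 ± 1.92 CPM in shCTR (SD, n = 3 each, edgeR adjusted p = 0.00298 and 0.00987). ACVR2A, a type II receptor shared with activin, fell by 0.72 on the log2 scale. NEO1, the receptor that binds the repulsive guidance co-receptors, fell by 1.14 (log2) and the co-receptor gene RGMA by 0.76, to 1.28 CPM against 2.16 CPM in shCTR (edgeR adjusted p = 0.00143 and 0.0474). Only the fit without shCTR 4, of the 6 that leave out a library, kept the RGMA call, and 8 receptors were called lower in it. RGMA was also not called by DESeq2 or limma-voom, without the low-count filter or with the replicate number as a block. BMPR1B, with 44.8 CPM in shNSD2 and 46.8 CPM in shCTR, ACVR2B, the endoglin gene ENG and RGMB were not called.

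The SMADs that carry the BMP signal differed in their values. SMAD9, itself induced by BMP, held 16.0, 22.7 and 23.8 CPM in shNSD2 libraries and 43.7, 37.7 and 41.2 CPM in shCTR libraries, without overlap (log2 fold change -0.97, SE 0.14, edgeR adjusted p = 0.00159). SMAD1 averaged 15.4 CPM in shNSD2 and 17.5 CPM in shCTR, SMAD5 85.7 CPM in shNSD2 and 96.4 CPM in shCTR, and the shared partner SMAD4 38.9 CPM in shNSD2 and 43.8 CPM in shCTR. Those 3 were not called in this fit (25% of the 4 SMADs called, beside 30.7% of all genes). Without shCTR library 4 the list held 2 called genes, SMAD5 beside SMAD9.

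Of 10 tested BMP inhibitors, 5 fell and 1 rose (60% called, beside 30.7% of all genes). With a library left out, 4 to 7 were called lower, 7 of them without shCTR library 4. SMAD6, an inhibitory SMAD induced by BMP as negative feedback, held 30.1, 39.6 and 36.6 CPM in shNSD2 libraries and 100.4, 82.7 and 81.0 CPM in shCTR libraries. As with the ID genes, shNSD2 library 1 was the lowest and shCTR library 1 the highest. The log2 fold change of SMAD6 was -1.31 (SE 0.12, edgeR adjusted p = 3.03e-04). SMAD7, the other inhibitory SMAD, averaged 8.54 ± 0.597 CPM in shNSD2 and 17.6 ± 1.69 CPM in shCTR, and the pseudoreceptor gene BAMBI 45.3 ± 3.70 CPM in shNSD2 and 91.8 ± 13.9 CPM in shCTR (SD, n = 3 each, edgeR adjusted p = 5.71e-04 and 6.09e-04). TWSG1, which binds BMPs outside the cell, and SMURF1, a ubiquitin ligase gene, had log2 fold changes of -0.48 and -0.30 (edgeR adjusted p = 0.00467 and 0.0307), the call of SMURF1 being kept, of the 6 fits with a library left out, only in that without shCTR 4. The secreted antagonist gene FSTL3 rose by 0.71 on the log2 scale (SE 0.11, adjusted p by edgeR 0.00201). The secreted antagonists NOG, GREM1 and FST had at most 5, 7 and 6 reads in a library and were not tested.

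Among 9 tested genes listed as other BMP targets, 6 fell (66.7% called, beside 30.7% of all genes), 4 of them being SMAD6, SMAD7, SMAD9 and BAMBI above. The list median was -1.02. The bHLH repressor gene HEY1 held 1.53, 2.31 and 1.75 CPM in shNSD2 libraries and 5.77, 5.21 and 4.07 CPM in shCTR libraries (log2 fold change -1.43, SE 0.21, edgeR adjusted p = 0.00186). ATOH8, a bHLH factor gene, averaged 0.763 ± 0.410 CPM in shNSD2 and 2.11 ± 0.564 CPM in shCTR (SD, n = 3 each, edgeR adjusted p = 0.0134). HES1, with 50.4 CPM in shNSD2 and 49.2 CPM in shCTR, and the homeobox genes MSX1 and MSX2 (0.37 and 0.24 on the log2 scale) were not called. Of the TGF-beta ligands, receptors and SMADs, 10 were tested, 5 fell and 1 rose (60% called, beside 30.7% of all genes). Without shNSD2 library 3, 3 fell and 0 rose. The type II receptor gene TGFBR2 averaged 0.150 ± 0.0461 CPM in shNSD2, near what 3 reads amount to, and 2.48 ± 1.06 CPM in shCTR (SD, n = 3 each, edgeR adjusted p = 6.16e-04).

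**Figure D5:**
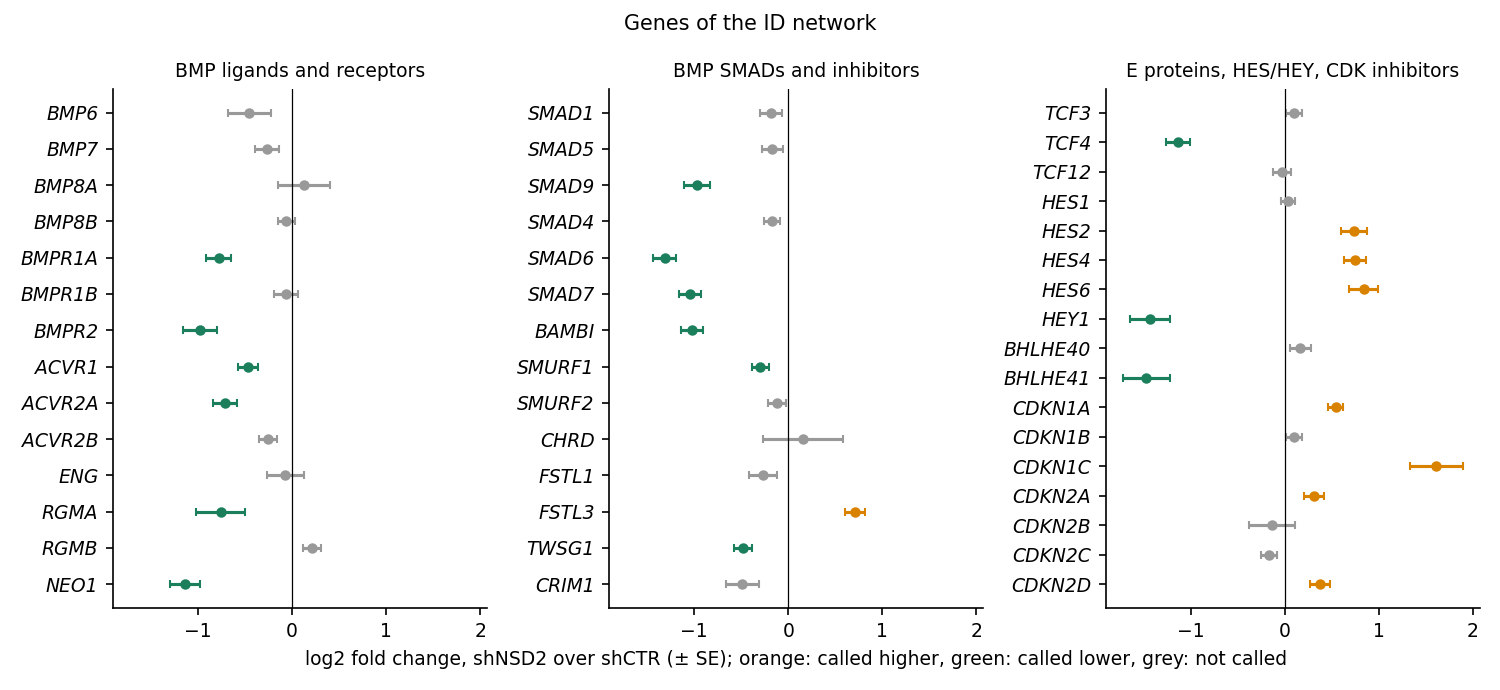
Log2 fold change (± SE) of shNSD2 over shCTR for the tested BMP ligands and receptors (left), BMP SMADs and inhibitors (middle), and E proteins, HES and HEY repressors and CDK inhibitors (right), with genes called lower in green, higher in orange and the rest in grey. The tested ligands are all grey, SMAD6 has the most negative value of the ligands, receptors, SMADs and inhibitors at -1.31, and TCF4 alone of the E proteins is green.

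Of the E proteins, the partners that ID proteins sequester, 1 of 3 fell, or 33.3% called beside 30.7% of all genes. TCF4, also called E2-2, held 11.1, 9.76 and 10.4 CPM in shNSD2 libraries and 25.5, 24.2 and 19.0 CPM in shCTR libraries, without overlap (log2 fold change -1.13, SE 0.13, edgeR adjusted p = 6.04e-04). TCF3, which encodes E12 and E47, averaged 105 ± 8.16 CPM in shNSD2 and 98.6 ± 2.16 CPM in shCTR, and TCF12, which encodes HEB, 60.8 ± 7.66 CPM in shNSD2 and 62.0 ± 2.07 CPM in shCTR (SD, n = 3 each). Neither was called (edgeR adjusted p = 0.418 and 0.851).

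Of 37 tissue-restricted bHLH factors listed, 9 were tested, 4 rose and 1, ATOH8, fell (55.6% called, beside 30.7% of all genes). DESeq2 called 3 higher and 2 lower. ASCL2, a stem cell bHLH factor gene, averaged 6.64 ± 0.377 CPM in shNSD2 and 2.83 ± 0.626 CPM in shCTR (SD, n = 3 each, log2 fold change 1.23, SE 0.18, edgeR adjusted p = 0.00178). The mesoderm factor genes MESP1 and MESP2 rose by 0.52 and 0.55 on the log2 scale (adjusted p by edgeR 0.00551 and 0.0164), and OLIG1, below 1 CPM in every library, rose by 1.17 (adjusted p by edgeR 0.0324). With a library left out, and the filter applied anew, 2 to 6 of the listed genes were called higher, 2 without shNSD2 library 1 or shCTR library 2 and 6 without shCTR library 4, and such counts can include listed genes outside the 9 tested. OLIG1 kept its call only when shCTR 4 was the library left out, and the call of MESP2 was lost without shNSD2 library 1 or shCTR library 2.

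Among 7 tested HES, HEY and BHLHE40 repressors, 3 rose and 2 fell (71.4% called, beside 30.7% of all genes). HES6, which lifts repression by HES1, averaged 88.4 ± 12.4 CPM in shNSD2 and 49.3 ± 10.9 CPM in shCTR, and HES4 61.8 ± 3.83 CPM in shNSD2 and 36.9 ± 6.08 CPM in shCTR (SD, n = 3 each, edgeR adjusted p = 0.00428 and 0.00226). HES2 rose by 0.74 on the log2 scale (adjusted p by edgeR 0.00476). The clock-related repressor gene BHLHE41 averaged 1.27 ± 0.383 CPM in shNSD2 and 3.53 ± 0.716 CPM in shCTR (SD, n = 3 each, edgeR adjusted p = 0.00338), and HEY1 was the other that fell.

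Of 7 CDK inhibitor genes, several of which are activated by E proteins, 4 rose (57.1% called, beside 30.7% of all genes). Of all genes tested, 15.5% were called higher. DESeq2 called 3 of the 4 CDK inhibitors higher, without CDKN2A. CDKN1A, which encodes p21, held 132, 124 and 121 CPM in shNSD2 libraries and 83.2, 87.0 and 88.2 CPM in shCTR libraries, without overlap (log2 fold change 0.54, SE 0.08, edgeR adjusted p = 0.00191). CDKN1C, which encodes p57, averaged 2.24 ± 0.387 CPM in shNSD2 and 0.728 ± 0.237 CPM in shCTR (SD, n = 3 each, log2 fold change 1.61, SE 0.28, edgeR adjusted p = 0.00346). CDKN2D and CDKN2A rose by 0.38 and 0.31 on the log2 scale (adjusted p by edgeR 0.0240 and 0.0491). Without shNSD2 1, shNSD2 3, shCTR 1 or shCTR 2, 2 CDK inhibitors were called higher, CDKN1A and CDKN1C, and the call of CDKN2A was also lost without shNSD2 2.

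Of 9 tested proteins other than bHLH factors that bind ID proteins, 3 fell (33.3% called, beside 30.7% of all genes), and 5 fell without shCTR library 4. The pocket protein gene RBL1 averaged 23.3 ± 0.823 CPM in shNSD2 and 45.8 ± 4.80 CPM in shCTR, and RB1, which encodes the retinoblastoma protein bound by ID2, 33.8 ± 3.51 CPM in shNSD2 and 49.1 ± 3.67 CPM in shCTR (SD, n = 3 each, edgeR adjusted p = 4.18e-04 and 0.00457). PDLIM5, a cytoplasmic anchor of ID2, fell by 0.45 on the log2 scale (adjusted p by edgeR 0.00890), a call lost without shNSD2 library 3. Among 5 genes acting on ID protein stability, 1 fell and 1 rose (40% called, beside 30.7% of all genes). USP1, the deubiquitinase that stabilises ID proteins, averaged 54.0 ± 1.61 CPM in shNSD2 and 81.4 ± 5.58 CPM in shCTR, and its cofactor gene WDR48 26.1 ± 0.654 CPM in shNSD2 and 21.4 ± 0.413 CPM in shCTR (SD, n = 3 each, edgeR adjusted p = 0.00160 and 0.0273). Among the fits with a library left out, WDR48 kept its call only without shCTR 4, and it was not called by DESeq2 either.

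Of 6 tested transcription factors known to act on ID genes, 1 was called, or 16.7% beside 30.7% of all genes. ATF3, a stress factor that represses ID1 together with SMAD3 in TGF-beta-treated epithelial cells, held 60.0, 53.7 and 56.7 CPM in shNSD2 libraries and 25.9, 26.7 and 34.6 CPM in shCTR libraries, without overlap (log2 fold change 0.97, SE 0.12, edgeR adjusted p = 7.54e-04). MYC, which activates ID2, averaged 278 ± 45.4 CPM in shNSD2 and 287 ± 29.7 CPM in shCTR (SD, n = 3 each, edgeR adjusted p = 0.793). EGR1, CREB1, YY1 and SP1 were not called either, and 2 genes of this list were called lower without shCTR library 4.

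The genes whose log2 levels followed each ID gene most closely over the 6 libraries were taken from the 10431 protein-coding genes averaging 5 CPM or more. The points share library, depth and the difference between groups, and 22 to 30 genes reached a Pearson r of 0.99 with a given member. For ID1 they were NEIL3, MTERF4, BRINP1, SFPQ and CDC45, at r from 0.996 to 0.998. For ID2 they were NCAPG, NRXN3, RFX3, GPR137C and XRCC2, and for ID4 IRX4, NRXN3, NCAPG, HELLS and CDC45, so that NRXN3, a synaptic adhesion gene, and NCAPG, a condensin subunit gene, were near both. For ID3 they were MOV10, LSG1, SMAD7, RANBP17 and PDIA3. NRXN3 averaged 1.85 CPM in shNSD2 and 8.57 CPM in shCTR, and BRINP1 1.77 CPM in shNSD2 and 17.1 CPM in shCTR. With group means subtracted, the closest gene was FAAH for ID1, NHLRC1 for ID2, ZNF266 for ID3 and SLC16A8 for ID4, each at r of 0.994 or more over the 6 libraries.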

How the data were processed

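The 6 libraries were made with a KAPA kit for mRNA, per the labels' protocols. The authors deposited raw read counts per gene, judged from whole numbers with unequal totals. CASAVA 1.8.2, STAR 2.6.0a and GRCh38 were used, per the submitters' processing notes. Of the counting program, annotation and strand setting, none is stated in the sources used here.

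Sample titles gave the groups. The test was that of edgeR 4.0.16, run in R 4.3.3 (filterByExpr, TMM, quasi-likelihood test, no covariate) over 17160 genes, with Benjamini-Hochberg adjustment over all of them and calls at an adjusted p under 0.05. SEs are the log2 fold change divided by the root of F. CPM are TMM-scaled. Positions and exon lengths are those of GENCODE 29 on GRCh38, and promoter sequences those of RefSeq. The fit was tested on simulated data.

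The members, the 15 gene lists and the tests were chosen with earlier results of these data known. Named genes are the 4 members, all tested BMP genes and E proteins, up to 4 called genes of each other list by smallest p (or the 2 of highest level), the 3 nearest tested genes on each side of each member, and the 5 protein-coding genes most correlated with each (3 after subtracting group means, with log2(CPM + 0.5)). Other genes were named after their values were seen. Alternatives were DESeq2 1.42.0, limma-voom (limma 3.58.1), other scalings and filters, the replicate number as a block, transcript length, and each library left out.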

Additional observations from a re-analysis of the deposited data

How the results depend on the processing

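The log2 fold changes of ID1, ID2, ID3 and ID4 kept their sign and moved by less than the spread between replicates under all 13 alternatives, with leave-one-out ranges of -2.14 to -1.82, -1.73 to -1.38, -1.27 to -1.10 and -2.62 to -2.18. The count of genes called was 5263, and 2436 (without shNSD2 3) to 8262 (without shCTR 4) with a library left out. The downstream and regulator genes join the lists of other BMP targets, TGF-beta genes and CDK inhibitors. They also hold the non-bHLH binding partners, the ID protein stability genes and the transcription factors known to act on ID genes. Of 46 tested, 7 were called higher and 15 lower (47.8% called, beside 30.7% of all genes). With a library left out, 3 (without shNSD2 3) to 9 were called higher and 12 (without shNSD2 3) to 19 lower. Of the flanking genes 2 were called higher (1 to 3) and 8 lower (5, without shNSD2 1, to 9). With the longest transcript as length, ID3 stood at 24.1 CPM per kilobase in shNSD2 and 54.1 in shCTR. Except for the change of length, the cause of these shifts was not tested. Beside the members, signs were compared for 109 named genes only. Among those not called, the sign of the log2 fold change turned for 8. Their leave-one-out ranges were BMP8A -0.019 to 0.38, BMPR1B -0.21 to 0.0089, ENG -0.20 to 0.078 and CHRD -0.19 to 0.53. The others were TCF12 -0.12 to 0.054, CDKAL1 -0.089 to 0.084, PRAG1 -0.19 to 0.027 and AC093323.1 -0.014 to 0.13.

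The replicate numbers 1 and 2 occur in both groups, but nothing in the labels says that they pair libraries, and the deviations of same-numbered libraries correlated at 0.04 and -0.18. With the number as a replicate block, 6243 genes were called, and ID1, ID2, ID3 and ID4 stood at -2.12, -1.80, -1.12 and -2.68. Under the block the signs of CHRD (-0.32), TCF12 (0.038), CDKAL1 (0.085) and AC093323.1 (-0.038) turned. ID4 in shNSD2 libraries rests on few reads, which limits the precision of its fold change.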
